A study of Mus musculus with 16 samples.

Results

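Genes of lipid droplet storage and lipolysis were examined in mRNA-seq of p53-/-; Myc hepatoblasts, a mouse liver progenitor cell line that lacks the tumor suppressor p53 and overexpresses the Myc oncogene. The set was Plin2, Plin3, Plin4, Plin5, Pnpla2, Abhd5, Lipe, Mgll, Dgat1 and Dgat2, taken by symbol for their known roles, 10 of the 40840 genes in the deposited table. All 10 had a row, and all 10 were among the 20444 genes that passed the filter of at least 10 counts in total over the 16 libraries. The cells had received sorafenib, an oral multikinase inhibitor used in liver cancer, or its vehicle DMSO, and were harvested after 48 hours or 7 days, so the groups were DMSO for 48 hours, sorafenib for 48 hours, DMSO for 7 days and sorafenib for 7 days, with 4 libraries each. The p53 loss and the Myc overexpression were shared by all 4 groups. All 16 libraries came from 1 cell line, and the labels do not say whether replicates were separate cultures, so p-values measure only the spread between these libraries.

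Lipid droplets store triglyceride under a coat of perilipins. DGAT1 and DGAT2 make triglyceride by adding the last fatty acid to diacylglycerol. In lipolysis, ATGL (encoded by Pnpla2) with its coactivator CGI-58 (Abhd5) releases the first fatty acid, hormone-sensitive lipase (Lipe) cleaves diacylglycerol, and monoacylglycerol lipase (Mgll) cleaves the remaining monoacylglycerol to a fatty acid and glycerol. In liver cells, PLIN2 and PLIN3 are the common coats, while PLIN5 is known from oxidative tissues and PLIN4 from adipose tissue and muscle. The study asked, among other questions, where sorafenib-treated cells take fatty acids from, and it displayed Mgll among genes taken from these same libraries, so the values of Mgll here are not independent evidence.

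Total counts per library ranged from 16586254 to 30828427. Values are normalized counts, that is counts scaled for library size with edgeR's TMM factors, and differences are log2 fold changes from edgeR's quasi-likelihood test, adjusted over all 20444 genes (FDR) and called under 0.05. One library stood apart. In sorafenib for 48 hours replicate 2, counts of genes after base 103350847 of chromosome 14 (GRCm39), in chromosome order, were 0.605 times those before it relative to the other replicates, and 14.3% of its counts fell there against 20.8 to 21.6% in the other 15 libraries. Dgat1 and Plin3, Plin4 and Plin5 lie in that stretch, and 48-hour results on them are given with and without this library. Of the hepatocyte and hepatoblast markers, Hnf4a was at 0 counts in all libraries, Alb had at most 1, Ttr at most 4, Apoa1 at most 3 and Afp at most 14 counts, so the defining hepatocyte genes were absent or nearly so. The progenitor markers Dlk1 (3488 to 38122 counts), Krt19 (865 to 3013) and Sox9 (204 to 1161) were present. The remaining markers of this list were lower, with Krt18 at 99 to 398 counts, Krt8 at 24 to 176 and Epcam at 1 to 37. Of the fibroblast and stellate cell markers, Col1a1 had 39863 to 81817 counts, Pdgfrb 434 to 2011 and Pdgfra 147 to 1768. Col1a2 had 48 to 334 counts, Des 12 to 114 and Lrat 0.

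The summed level of marker lists differed between groups. The 11 hepatoblast and hepatocyte markers summed to 34813 to 36175 normalized counts with DMSO and 12242 to 14014 with sorafenib at 48 hours, and to 18309 to 20173 and 6041 to 6309 at 7 days. Dlk1 had by far the highest counts of this list, and Krt19, the next, had at most 3013. Of the 9 tested, 1 was called higher and 5 lower at 48 hours, and 1 higher and 7 lower at 7 days. Shares over all genes are given below. The 6 fibroblast and stellate markers, of which Lrat was at 0, summed to 43759.7 to 46485 with DMSO and 79691 to 86090.2 with sorafenib at 48 hours, and to 42259 to 44774 and 52275 to 54141 at 7 days, most of it Col1a1. Of the 5 tested, 2 were called higher and 2 lower at 48 hours, and 2 higher and 3 lower at 7 days. Their median log2 fold changes were -0.30 and -0.61, so the sum did not stand for the list. The 4 endothelial markers summed to 55.7 to 98.0 and 119 to 151 at 48 hours and to 36.8 to 61.3 and 196 to 228 at 7 days. Kdr had 26 to 270 counts, Tek 2 to 25, Pecam1 0 to 9 and Cdh5 0 to 2. Of the 3 tested, 1 was called higher and 1 lower at each time, with median log2 fold changes of -1.31 and 0.68. The 5 macrophage and leukocyte markers (Adgre1 at 0, Ptprc at most 4 counts) summed to 75.6 to 88.0 with DMSO and 61.9 to 89.8 with sorafenib at 48 hours, and to 125 to 157 and 75.2 to 86.9 at 7 days. The 5 adipocyte markers, including Plin1, the adipocyte perilipin, summed to between 0.868 and 8.8 in all libraries. The part of these shifts in the results was not tested. In bulk RNA, fewer cells of a type and less RNA per cell cannot be told apart.

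At 48 hours, 3 of the 10 genes rose with sorafenib (Mgll, Abhd5 and Pnpla2), 1 fell (Lipe) and 6 were not called. Over all tested genes, 26.9% rose and 27.7% fell. At 7 days, 5 rose (Mgll, Plin3, Abhd5, Plin2 and Pnpla2), 1 fell (Lipe) and 4 were not called, against 28.9% and 27.9% of all genes. The share of genes called was thus not far from that of the transcriptome, and the results concern which genes moved and by how much. The median absolute log2 fold change of the 10 genes was 0.64 at 48 hours and 0.37 at 7 days, and 0.41 and 0.51 over the 8 genes other than the barely detected Plin4 and Plin5, beside 0.50 over all genes at both times. The ranges of the sorafenib and DMSO libraries did not overlap for 4 of the 10 genes at 48 hours and 6 at 7 days, against 48% and 56.8% of all genes. Without sorafenib for 48 hours replicate 2, the 48-hour count was 7 of 10, against 57% of all genes in that fit and 54.6% with all libraries, with Plin2 and Dgat2 called lower and Plin3 called higher in addition.

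**Figure D1:**
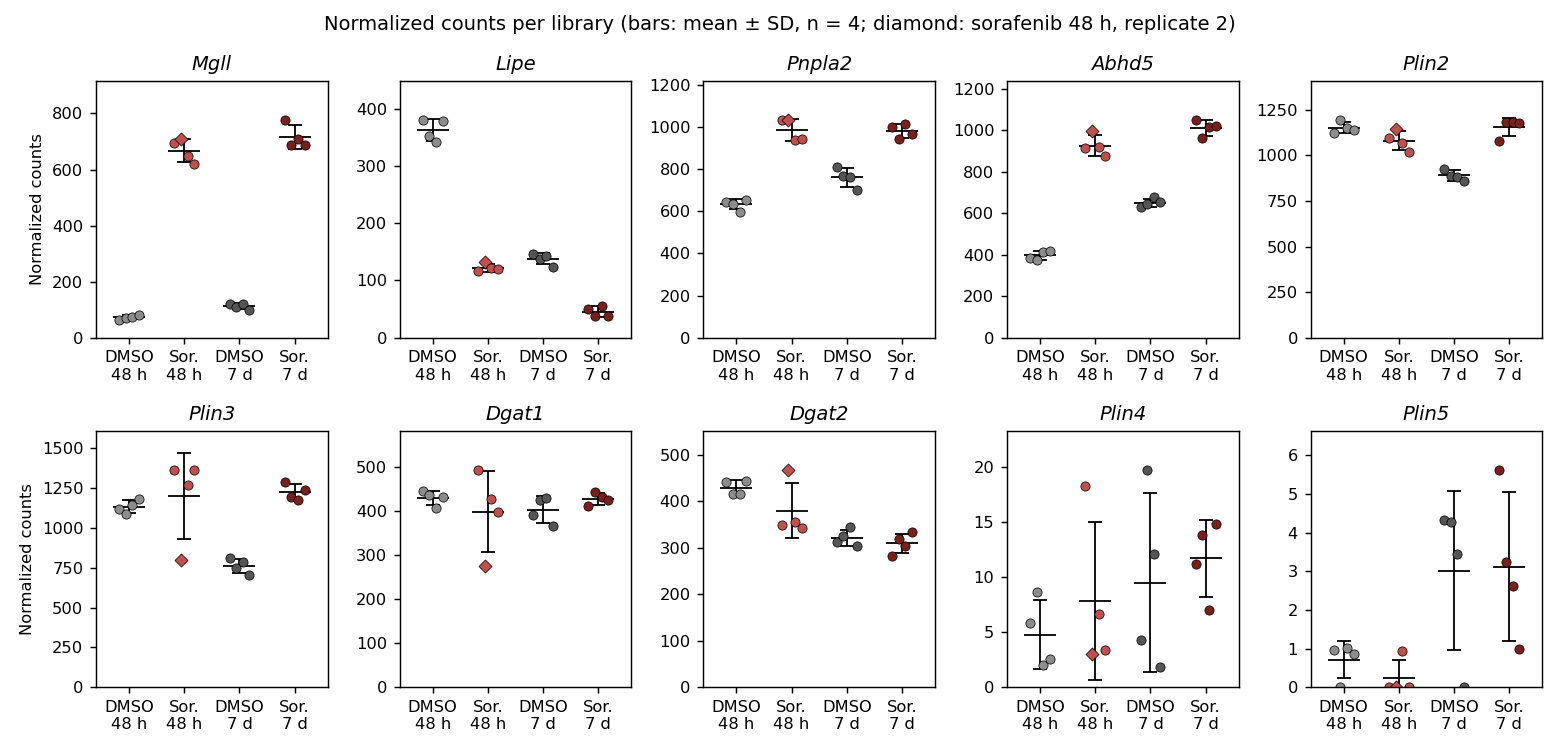
Normalized counts of the 10 genes (vertical axis, each panel from 0) in the 4 groups (horizontal axis). Points are libraries, bars are mean ± SD of 4 libraries, and the diamond is sorafenib for 48 hours replicate 2. Mgll lies at 619 to 776 in the sorafenib libraries and 63.5 to 121 in the DMSO libraries. Lipe is highest with DMSO for 48 hours and lowest with sorafenib for 7 days.

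Of the well-measured genes, Mgll and Lipe, which act at successive steps of lipolysis, differed most with treatment at both times and in opposite directions. Mgll (chr6:88652108-88805342, plus strand, GRCm39) was low with DMSO. Its normalized counts in replicates 1 to 4 were 63.5, 69.4, 74.5 and 82.1 with DMSO for 48 hours and 696, 708, 647 and 619 with sorafenib for 48 hours. At 7 days they were 121, 109.6, 120.0 and 98.3 with DMSO and 776, 687, 708 and 687 with sorafenib. Every sorafenib library lay far above every DMSO library at both times. The mean rose from 72.4 ± 7.87 to 667 ± 41.6 (SD, n = 4) at 48 hours, 9.22-fold, with a log2 fold change of 3.20 (SE 0.0834, FDR = 2.86e-17). At 7 days it rose from 112 ± 10.6 to 715 ± 42.3, 6.37-fold, with a log2 fold change of 2.67 (SE 0.0761, FDR = 1e-16). Ranked by absolute log2 fold change, Mgll was number 857 of the 20444 genes at 48 hours and 1426 at 7 days. The exact two-sided permutation test gave p = 0.0286 at each time, the smallest that 4 against 4 libraries can give. Exons of the opposite-strand noncoding gene Gm26588 cover 8.03% of the Mgll exons.

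Lipe (chr7:25078880-25098135, minus strand, GRCm39) moved the other way. Its normalized counts were 380.2, 353, 342 and 378 with DMSO for 48 hours and 116, 132, 121 and 120.4 with sorafenib for 48 hours. At 7 days they were 147, 138, 143 and 124 with DMSO and 50.6, 37.4, 56.0 and 37.4 with sorafenib. Treated and control libraries did not overlap at either time, while the 7-day DMSO libraries overlapped with the 48-hour sorafenib libraries. Lipe fell from 363 ± 18.7 to 122 ± 6.47 at 48 hours (log2 fold change -1.57, SE 0.0899, FDR = 6.73e-12) and from 138 ± 9.96 to 45.3 ± 9.45 at 7 days (log2 fold change -1.61, SE 0.114, FDR = 1.79e-10). The ratios of sorafenib to DMSO were 0.337 and 0.328. Exons of the opposite-strand noncoding gene 4732471J01Rik cover 22.3% of the Lipe exons, and the strand setting of the counting is not given in the sources used here.

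Promoter sequences of these genes, which had the largest rise and the largest fall of the set, are shown with matches to short motifs of factors known to act on lipid genes. RefSeq entries (GRCm38.p6, 250 bases before to 50 after a start) were present for 8 of the 10 genes, Mgll and Lipe among them, each with more than 1 start. Letters searched on both strands were TGTTTAC (a FOXO site), CACGTG (an E-box, bound by several factors, TFEB and SREBP-family proteins among them), AGGTCA (a nuclear receptor hexamer) and TGANTCA (an AP-1 site), with the core promoter element TATAAA beside them. None of these contains another, and matches are in capitals. The upstream Mgll entry (chr6:88724162-88724461, plus strand) held the FOXO letters on the minus strand at base 10 and an E-box at base 207, counted from its 5′ end. One Lipe entry (chr7:25395938-25396237, minus strand) held an E-box at base 96, and the other (chr7:25390063-25390362, minus strand) the FOXO letters at base 132.
Mgll upstream start: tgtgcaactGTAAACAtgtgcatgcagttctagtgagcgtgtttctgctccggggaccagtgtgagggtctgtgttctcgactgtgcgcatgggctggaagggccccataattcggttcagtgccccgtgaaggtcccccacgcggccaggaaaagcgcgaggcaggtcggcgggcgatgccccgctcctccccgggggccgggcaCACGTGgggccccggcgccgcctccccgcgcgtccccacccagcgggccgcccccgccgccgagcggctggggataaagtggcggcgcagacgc
Lipe upstream start: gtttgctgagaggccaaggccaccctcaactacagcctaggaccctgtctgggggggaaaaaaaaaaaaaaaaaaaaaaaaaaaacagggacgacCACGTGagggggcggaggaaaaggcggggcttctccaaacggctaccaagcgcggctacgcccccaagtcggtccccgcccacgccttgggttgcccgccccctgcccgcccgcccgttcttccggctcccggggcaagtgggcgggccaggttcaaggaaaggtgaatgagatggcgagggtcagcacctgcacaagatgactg
Lipe downstream start: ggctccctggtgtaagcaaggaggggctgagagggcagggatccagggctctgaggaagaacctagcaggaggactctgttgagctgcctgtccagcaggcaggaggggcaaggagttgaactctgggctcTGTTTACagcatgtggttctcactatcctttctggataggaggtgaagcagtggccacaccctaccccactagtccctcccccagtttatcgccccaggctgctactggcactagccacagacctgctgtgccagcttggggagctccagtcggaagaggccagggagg
Of 32851 promoters of the same length, 3.65% held the FOXO letters and 7.15% the E-box. Over the 11 entries of the set, 2 held the FOXO letters (those of Mgll and Lipe), 3 the E-box (Mgll, Lipe and Plin2), 4 AGGTCA (Plin2, Abhd5 and both Plin5 entries, against 16.3% of all), 1 the AP-1 letters (Plin5, against 7.81%) and 0 TATAAA (13.6% of all). The same letters thus occurred at a gene that rose and at a gene that fell. A match is a description of the letters and not of binding.

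Pnpla2 and Abhd5, which act together at the first step, both rose. Pnpla2 (chr7:141034404-141040656, plus strand) had 643, 632, 598 and 653 normalized counts with DMSO and 1029.9, 1031, 937 and 944 with sorafenib at 48 hours. After 7 days the counts were 808, 767, 763 and 701 with DMSO and 998, 941, 1013 and 967 with sorafenib. The sorafenib libraries were above all DMSO libraries at both times, by a smaller margin at 7 days. The log2 fold change was 0.64 (SE 0.0507, FDR = 1.17e-09) at 48 hours and 0.37 (SE 0.0491, FDR = 2.01e-06) at 7 days.

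Abhd5 (chr9:122180621-122222936, plus strand) had 385, 376, 411 and 420.0 normalized counts with DMSO and 915, 995, 918 and 874 with sorafenib at 48 hours. The 7-day values were 630.4, 644, 678 and 653 with DMSO and 1049, 961, 1016 and 1022 with sorafenib. The 4 groups formed separate bands except that the sorafenib libraries of the 2 times met between 961 and 995. The log2 fold change was 1.22 (SE 0.0513, FDR = 5.12e-14) at 48 hours, a 2.33-fold rise, and 0.63 (SE 0.0478, FDR = 4.87e-10) at 7 days, a 1.55-fold rise. Opposite-strand noncoding genes overlap 22.0% of the Pnpla2 exons and, for Abhd5, 15.5% (A730085K08Rik) and 0.978% (Gm35398) of the exons.

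Of the coat proteins, Plin2 and Plin3 were abundant and Plin4 and Plin5 barely detected. Plin2 (chr4:86565912-86588459, minus strand) had 1122, 1193, 1149 and 1139 normalized counts with DMSO and 1096, 1145, 1067 and 1016 with sorafenib at 48 hours. After 7 days Plin2 had 928, 886, 884 and 862 with DMSO and 1079.8, 1182, 1183 and 1176 with sorafenib. The groups overlapped at 48 hours and were apart at 7 days. At 48 hours Plin2 missed the threshold (log2 fold change -0.09, SE 0.0438, FDR = 0.0836), and without sorafenib for 48 hours replicate 2 it was -0.12 (FDR = 0.0132). At 7 days the rise was 1.30-fold (log2 fold change 0.38, SE 0.0436, FDR = 2.62e-07).

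Plin3 (chr17:56584218-56599873, minus strand) had 1114, 1087, 1145 and 1180.4 normalized counts with DMSO for 48 hours and 1359.6, 799.9, 1269 and 1362 with sorafenib for 48 hours. The low value is the library described above, and the other 3 sorafenib libraries lay above all DMSO libraries. At 7 days Plin3 had 809, 748, 784 and 704 with DMSO and 1289, 1194, 1176 and 1235 with sorafenib. Plin3 was not called at 48 hours with all libraries (log2 fold change 0.09, SE 0.105, FDR = 0.509), and without that library it rose by 0.23 (SE 0.0436, FDR = 9.32e-06). At 7 days it rose 1.61-fold (log2 fold change 0.68, SE 0.106, FDR = 1.35e-05).

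Plin4 (chr17:56406617-56416931, minus strand) had 2 to 23 counts per library and Plin5 (chr17:56418446-56424610, minus strand) 0 to 5. A count of 3 corresponded to 2.44 to 4.54 normalized counts, so Plin5 was at or under about that floor in most libraries. The treatment difference of Plin4 was 0.64 (95% confidence interval -0.82 to 2.09) at 48 hours and 0.25 (-0.87 to 1.37) at 7 days on the log2 scale, and no difference was detectable at this depth. Without the library with lowered counts the 48-hour value of Plin4 was 0.85 (FDR = 0.225). Plin5 was not called at 48 hours with or without that library (FDR = 0.574 and 0.706) or at 7 days (FDR = 0.990). The Hdgfl2 gene on the opposite strand shares 39.1% of the Plin4 exons, so even these few reads are uncertain.

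The triglyceride synthases differed little with treatment. Dgat1 (chr15:76385083-76396476, minus strand) had 446, 436, 407 and 432 normalized counts with DMSO and 494, 275, 427 and 399 with sorafenib at 48 hours. The 7-day libraries had 392, 425, 431 and 366 with DMSO and 411, 443, 432 and 426 with sorafenib. The value of 275 is again the library with lowered counts, and all groups overlapped. The log2 fold change was -0.10 (95% confidence interval -0.32 to 0.12, FDR = 0.442) at 48 hours, 0.02 without that library (FDR = 0.814), and 0.08 (-0.13 to 0.30, FDR = 0.515) at 7 days. The heat shock factor gene Hsf1 on the opposite strand overlaps 54.6% of the Dgat1 exons.

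Dgat2 (chr7:98802491-98831991, minus strand) had 441, 416, 416 and 444 normalized counts with DMSO and 349, 467, 356 and 343 with sorafenib at 48 hours. The 467 was replicate 2, and the other 3 sorafenib libraries were below all DMSO libraries. Dgat2 lies outside the stretch with lowered counts. Replicate 2 was also the highest sorafenib library at 48 hours for Plin2, Pnpla2, Abhd5, Lipe and Mgll, all outside that stretch. The part of the scaling of this library was not tested. At 7 days it had 312, 326, 344 and 303 with DMSO and 283, 318, 303 and 333 with sorafenib, which overlapped. The log2 fold change was -0.19 (95% confidence interval -0.36 to -0.02, FDR = 0.0547) at 48 hours and -0.30 without replicate 2 (FDR = 0.000249). At 7 days it was -0.05 (-0.23 to 0.12, FDR = 0.608).

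**Figure D2:**
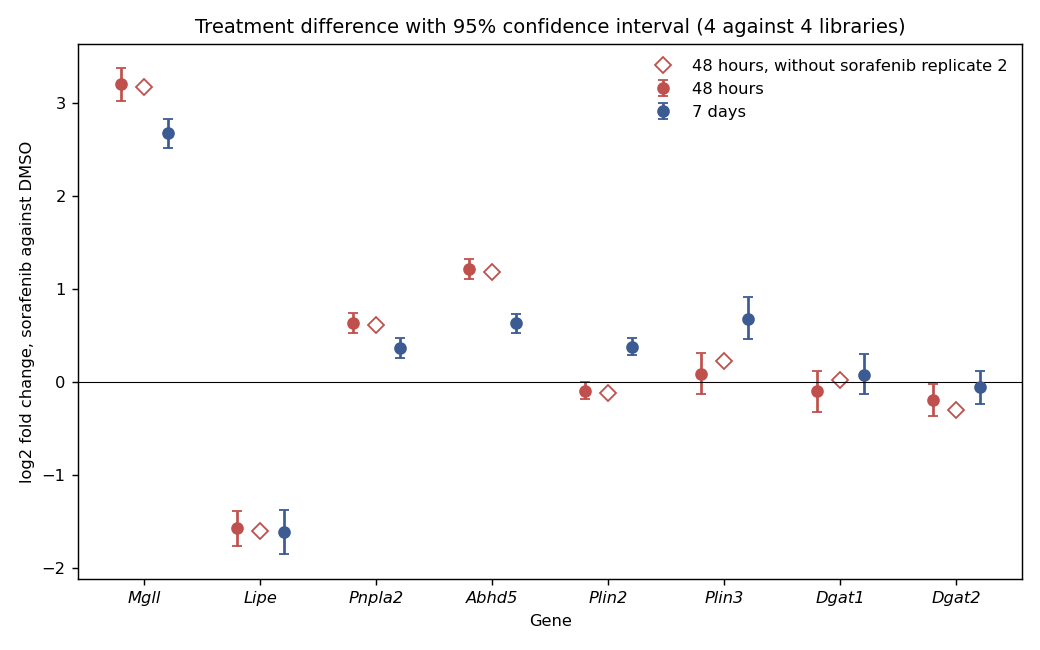
Log2 fold change of sorafenib against DMSO (vertical axis) for the 8 genes with adequate counts (horizontal axis). Filled points are the fits at 48 hours (red) and 7 days (blue) with 95% confidence intervals from all 16 libraries, and open diamonds are 48-hour values without sorafenib replicate 2. Mgll (3.20 and 2.67) and Lipe (-1.57 and -1.61) lie farthest from 0, and Plin2 and Plin3 are higher at 7 days than at 48 hours.

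The treatment difference itself changed with time for 5 of the 10 genes by the interaction test, against 36.8% of all genes. The log2 fold change at 7 days minus that at 48 hours was 0.47 for Plin2 (SE 0.0618, FDR = 4.18e-06) and 0.60 for Plin3 (SE 0.149, FDR = 0.00336), or 0.45 for Plin3 without sorafenib for 48 hours replicate 2 (FDR = 1.18e-08). It was -0.58 for Abhd5 (SE 0.0701, FDR = 1.42e-06), -0.53 for Mgll (SE 0.12, FDR = 0.00156) and -0.27 for Pnpla2 (SE 0.0705, FDR = 0.00466). For these genes the rise of the lipolytic members was smaller at 7 days, and Plin2 and Plin3 stood higher against DMSO at 7 days than at 48 hours. With total counts in place of TMM factors the Pnpla2 value was -0.18 and was no longer called (FDR = 0.0957). For Lipe the change in the difference was -0.04 (95% confidence interval -0.34 to 0.26, FDR = 0.882). Without replicate 2 the interaction of Dgat2 was 0.24 (FDR = 0.0365), which raised the count to 6, against 43% of all genes in that fit.

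These genes also differed between the times with vehicle. The labels do not say whether libraries of 48 hours and 7 days were cultured and handled together. Time and such differences cannot be told apart. From 48 hours to 7 days with DMSO, 3 of the 10 genes rose and 4 fell, against 23.9% and 25.5% of all genes. Abhd5 rose by 0.71 on the log2 scale (FDR = 5.29e-10), Mgll by 0.63 (FDR = 3.14e-05) and Pnpla2 by 0.26 (FDR = 0.000185). Lipe fell by 1.40 (FDR = 3.69e-11), Plin3 by 0.57 (FDR = 0.000136), Dgat2 by 0.42 (FDR = 0.000192) and Plin2 by 0.37 (FDR = 4.97e-07). For Lipe the ratio of 7 days to 48 hours with DMSO was 0.380, beside 0.337 for sorafenib against DMSO at 48 hours.

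From 48 hours to 7 days with sorafenib, 2 genes rose and 2 fell, against 17.5% and 22.3% of all genes. Lipe fell by 1.43 (FDR = 8.82e-09) and Dgat2 by 0.28 (FDR = 0.0115). Abhd5 rose by 0.13 (FDR = 0.0361), with overlapping libraries, and the other called gene was Plin5, at 0 to 1 and 1 to 5 counts per library. Neither was called with the replicate number as a block (FDR = 0.0867 for Abhd5 and 0.0577 for Plin5). The test was not passed by Mgll (log2 fold change 0.10, 95% confidence interval -0.03 to 0.23), Pnpla2 (-0.01, -0.11 to 0.10) and Plin2 (0.10, 0.01 to 0.19, FDR = 0.0814). Plin3 differed by 0.02 (FDR = 0.891), and without sorafenib for 48 hours replicate 2 by -0.12 (FDR = 0.0199). The time contrasts and the treatment contrasts share libraries.

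Levels were compared between genes as normalized counts per kilobase of annotated exon (the union of all exons in GENCODE vM39). With DMSO for 48 hours the order was Pnpla2 (161 ± 6.08 per kilobase, SD, n = 4), Plin3 (155 ± 5.52), Plin2 (149.7 ± 3.93), Dgat1 (94.6 ± 3.6), Dgat2 (71.1 ± 2.55), Lipe (61.0 ± 3.14), Abhd5 (55.6 ± 2.94), Mgll (11.7 ± 1.27), Plin4 (0.600 ± 0.387) and Plin5 (0.234 ± 0.157). Libraries of neighbours overlapped for the first 3 genes, for Lipe and Abhd5, and for Plin4 and Plin5. With sorafenib for 7 days Pnpla2 was again first (249 ± 8.11), followed by Plin3 (168 ± 6.86), Plin2 (150.4 ± 6.56), Abhd5 (141 ± 5.2), Mgll (116 ± 6.84), Dgat1 (94.0 ± 2.94), Dgat2 (51.3 ± 3.55) and Lipe (7.61 ± 1.59), and of these only Plin2 and Abhd5 overlapped. Mgll moved from below Lipe, Dgat1 and Dgat2 to above all 3, and Lipe from beside Abhd5 to the lowest of the 8 well-measured genes. With the length of the longest transcript in place of the exon union, Plin2 (315) came before Pnpla2 (236) with DMSO for 48 hours, Dgat2 (149) before Dgat1 (139.6) and Abhd5 (121) before Lipe (92.7). With sorafenib for 7 days and that length, Plin2 (316) and Abhd5 (308) came before Plin3 (199). These places in the order thus depend on the length used.

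**Figure D3:**
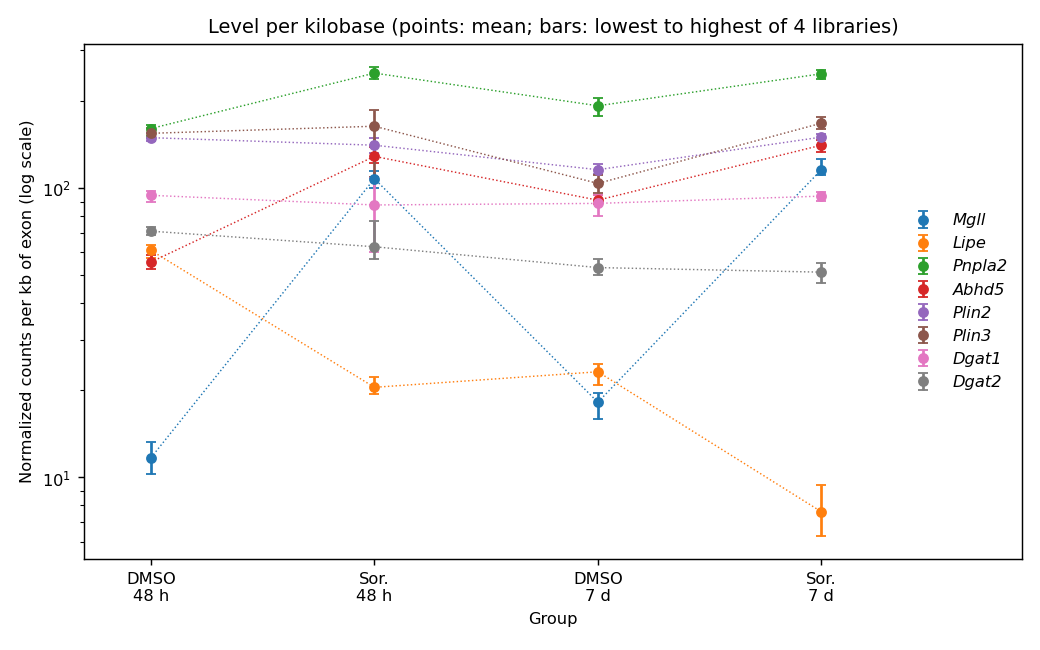
Normalized counts per kilobase of exon (vertical axis, log scale) of 8 genes in the 4 groups (horizontal axis). Points are means of 4 libraries, bars run from the lowest to the highest library, and dotted lines join values of the same gene. Mgll moves from 11.7 with DMSO for 48 hours to 116 with sorafenib for 7 days, while Lipe moves from 61.0 to 7.61.

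Ratios of genes within a library do not depend on the scaling between libraries. The ratio of Mgll to Lipe counts per kilobase was 0.161 to 0.210 with DMSO for 48 hours, 0.763 to 0.807 with DMSO for 7 days, 4.96 to 5.76 with sorafenib for 48 hours and 12.2 to 17.7 with sorafenib for 7 days. Lipe transcripts exceeded those of Mgll per kilobase in all 8 DMSO libraries, and Mgll exceeded Lipe in all 8 sorafenib libraries. The ratio of Mgll to Pnpla2 was 0.0629 to 0.0800 and 0.0893 to 0.100 in the DMSO groups of 48 hours and 7 days and 0.418 to 0.440 and 0.445 to 0.495 in the sorafenib groups. The ratio of the coactivator Abhd5 to its lipase Pnpla2 was 0.327 to 0.378 with DMSO and 0.489 to 0.539 with sorafenib at 48 hours, and 0.429 to 0.512 and 0.552 to 0.582 at 7 days.

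**Figure D4:**
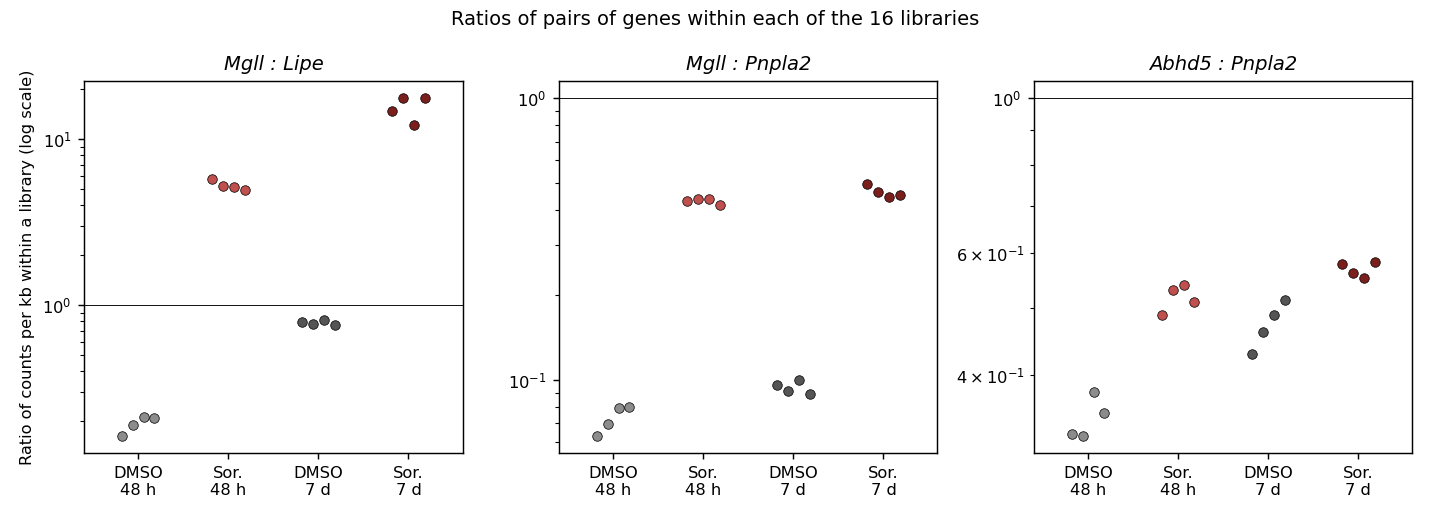
Ratio of counts per kilobase of exon (vertical axis, log scale) for 3 pairs of genes in each of the 16 libraries, by group (horizontal axis). Each point is a library, and the line marks a ratio of 1. The Mgll to Lipe ratio is at most 0.807 in DMSO libraries and at least 4.96 in sorafenib libraries, while Abhd5 stays below Pnpla2 in all of them.

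Related genes were taken from 5 lists on the same pathway, and their counts are read against the shares of all genes given above. The median log2 fold change over all genes was -0.05 at 48 hours and 0.02 at 7 days. Among other lipases and inhibitors of lipolysis, 4 of 10 tested genes rose and 3 fell at 48 hours, and 5 rose and 4 fell at 7 days, with a median log2 fold change of -0.17 and 0.00. Lpl, the lipoprotein lipase that hydrolyses triglyceride outside the cell, rose from 2362 ± 65.2 to 6908 ± 279.7 at 48 hours (log2 fold change 1.55, FDR = 5.17e-18) and from 2711 ± 107 to 7075 ± 83.5 at 7 days (1.38, FDR = 2.16e-17). Abhd12, a lysophospholipid and monoacylglycerol hydrolase, rose by 0.37 (FDR = 2.53e-06) and 0.39 (FDR = 7.92e-07). Abhd6, another monoacylglycerol hydrolase, fell by 0.30 at 48 hours (FDR = 0.00048). Hilpda, an inhibitor of ATGL, fell from 408 ± 26.5 to 268 ± 29.2 at 48 hours (-0.60, FDR = 1.36e-06) and from 309.8 to 222 at 7 days (-0.48, FDR = 2.67e-05). Lipg, the endothelial lipase, differed by -0.04 at 48 hours (FDR = 0.765) and fell from 468 ± 11.6 to 55.8 ± 8.46 at 7 days (-3.05, FDR = 1.35e-14). Lipg lies in the stretch with lowered counts, and its 48-hour value without that library was 0.07 (FDR = 0.499).

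Upstream of DGAT, among acyltransferases, lipins and steryl ester synthases, 9 of 15 tested genes rose and 4 fell at 48 hours, and 7 rose and 4 fell at 7 days, with medians of 0.20 and 0.24. Agpat2, which makes phosphatidic acid, rose from 264 ± 8.30 to 439 ± 57.4 (0.73, FDR = 6.8e-08) and from 231 to 438 (0.92, FDR = 1.62e-09). Its family member Agpat5 fell by 0.59 (FDR = 1.7e-09) and 1.03 (FDR = 2.47e-13). Lpin1, a phosphatidate phosphatase that supplies diacylglycerol, fell from 926 ± 126 to 321 ± 13.0 at 48 hours (-1.53, FDR = 2.19e-11) and from 584 ± 35.2 to 117 ± 19.6 at 7 days (-2.31, FDR = 2.58e-13). Tmem68 rose by 0.46 at 48 hours (FDR = 2.55e-06). Agpat1, in the stretch with lowered counts, rose by 0.31 at 7 days (FDR = 0.0128). Soat2, a steryl ester synthase, rose by 3.24 at 48 hours (FDR = 2.3e-11) and by 4.99 at 7 days (FDR = 2.22e-14). Without the library with lowered counts, the 48-hour value of Soat2 was 3.3 (FDR = 6.26e-18).

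Of 8 genes of glycerol handling, 4 rose and 2 fell at each time, with medians of 0.39 and 0.82. Gk, glycerol kinase, which the study also displayed from these libraries, rose from 319 ± 33.3 to 603 ± 141 at 48 hours (0.94, FDR = 1.69e-06, and 1.08 without the library with lowered counts) and from 375 ± 7.78 to 744 ± 57.8 at 7 days (0.99, FDR = 3.98e-07). Gpd2, the mitochondrial glycerol-3-phosphate dehydrogenase, rose by 0.58 (FDR = 5.77e-12) and 0.65 (FDR = 7.78e-13). Pgp, a phosphatase that releases glycerol from glycerol-3-phosphate, fell by 0.82 (FDR = 2.47e-07, and by 0.70 without that library) and 0.87 (FDR = 7.24e-08). Gpd1l fell by 0.52 at 7 days (FDR = 4.66e-11).

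Of 8 tested genes for droplet assembly and other coats, 2 rose and 1 fell at 48 hours and 2 rose and 0 fell at 7 days, with medians of 0.13 and 0.11. Aup1, a droplet and endoplasmic reticulum protein, rose by 0.25 (FDR = 1.27e-06) and 0.26 (FDR = 6.49e-07). Bscl2, the seipin gene, was at the threshold at 48 hours (0.20, FDR = 0.0476, and 0.30 without the library with lowered counts, FDR = 0.000394), and the number of rises in this list was 1 to 3 at each time when a library was left out.

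Of 10 transcription factors known for this pathway, 1 rose and 6 fell at 48 hours, and 2 rose and 5 fell at 7 days, with medians of -0.50 and -0.51. Foxo3 fell from 3208 ± 109 to 1672 ± 31.0 at 48 hours (-0.94, FDR = 7.16e-15). Srebf1, a regulator of lipid synthesis genes, fell from 4398 ± 146 to 2554 ± 40.9 (-0.78, FDR = 3.36e-14) and from 3807 ± 109 to 1952 ± 28.4 (-0.96, FDR = 1.3e-15). Tfeb, a regulator of lysosomal genes, fell from 793 ± 26.2 to 304 ± 16.4 at 7 days (-1.38, FDR = 1.52e-12). Pparg, the adipogenic nuclear receptor, rose from 75.3 ± 3.92 to 140.3 ± 17.1 at 7 days (0.91, FDR = 6.1e-08), and Ppard by 0.24 (FDR = 0.0369). With a library left out, the number of rises in this list was 1 to 2 at each time.

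**Figure D5:**
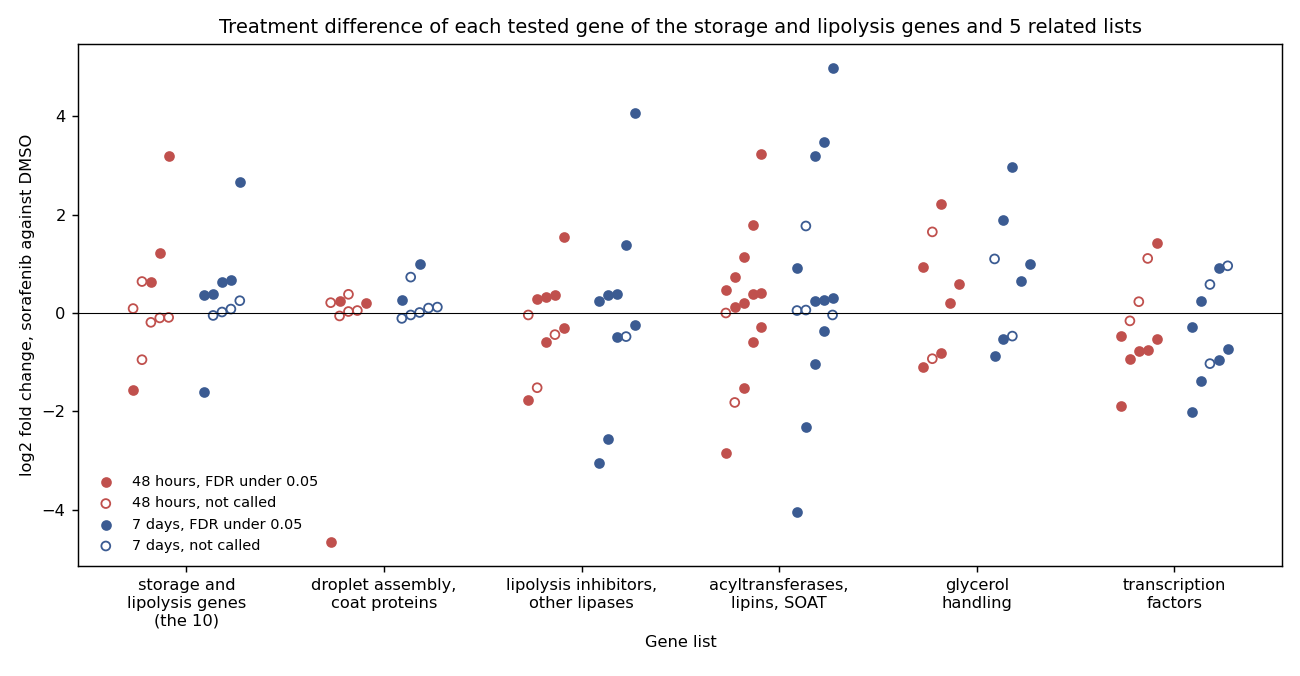
Log2 fold change of sorafenib against DMSO (vertical axis) for each tested gene of the 10 storage and lipolysis genes and of the 5 related lists (horizontal axis), at 48 hours (red) and 7 days (blue). Filled points have an FDR under 0.05 and open points do not. Genes that rose and genes that fell occur in the storage and lipolysis set and in each list at 48 hours.

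The genes whose profile over the 16 libraries was most like that of each well-measured gene were found among the 10645 genes that averaged 100 normalized counts or more, as the smallest root mean square difference of centred log2 values. For Mgll they were Nupr1 (0.171), a stress-induced chromatin protein, Ahnak2 (0.176) and Lrrc75b (0.176), with 1.5 as the median over all genes. For Lipe they were Hmcn1 (0.173), Acvr2b (0.183) and Rcor2 (0.204), with a median of 1.09. For Abhd5 they were Csrp1 (0.0548), Cdc42bpa (0.0551) and Dync1h1 (0.0698), with a median of 0.581, and for Pnpla2 they were Dnm2 (0.0520), Mtfr1l (0.0629) and Atxn2l (0.0671), with a median of 0.368. For Plin2 they were Ccdc91, Tob1 and Bmp1 (0.0551 to 0.0669), for Plin3 Sun2, Nthl1 and Runx1 (0.0763 to 0.0888), for Dgat1 Atp9b, Eef1g and Ganab (0.0778 to 0.0840) and for Dgat2 Eri3, 1700030K09Rik and Rps20 (0.0826 to 0.0872). No gene of the set was among the 3 nearest of another. Libraries share treatment, time and depth, so these likenesses are descriptions. Plin3 and Dgat1 lie in the stretch with lowered counts, and the library with lowered counts was among the 16 libraries compared. The part of that library in the choice of their nearest genes was not tested.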

How the data were processed

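mRNA was sequenced from stranded libraries, 4 in each group. The authors aligned reads to GRCm39 with STAR 2.7.1a and counted them with featureCounts 2.0.6 per the labels, and the deposited values are raw counts per gene, with no pooling. The strand setting and annotation are not given in the sources used here. Genes with under 10 counts in total were removed, as in the study's methods. edgeR 4.0.16 (R 4.3.3) fitted 1 quasi-likelihood model to 16 libraries with TMM factors, a coefficient per group and Benjamini-Hochberg adjustment, where the study had used DESeq2 1.40.2. SE is the log2 fold change over the root of F, and intervals are 95%. Single values also had an exact permutation test of 4 against 4. In simulated data the fit was tested first. The genes, the lists and the rule for named genes (for each list and time, at most 2 rises and 2 falls averaging 100 normalized counts or more, and the 3 genes nearest in profile to each well-measured gene) were chosen with earlier results of these data known. Soat2 was named outside that rule for the size of its rise. Replicates differed by more than counting error (lowest chi-square per gene 1.576). It was highest, 53.066 to 71.548, for DMSO for 7 days replicate 4 against its group. Within DMSO for 48 hours it was 5.089 to 42.663. For sorafenib for 48 hours replicate 2 against its group it was 32.596 to 38.044. The SD of log2 ratios was 0.333 to 0.334 for that library and 0.152 to 0.159 for DMSO for 7 days replicate 4. The alternatives were DESeq2 1.42.0, limma 3.58.1 voom, other scalings and filters, a replicate block, an offset, and libraries left out. Of 13 genes listed for droplet assembly, 12 had a row.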

Additional observations from a re-analysis of the deposited data

Results flagged for a closer look

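Within each gene and group of 4 libraries, 40 sets in all, the lowest or highest library was compared with the nearest of the others by Dixon's ratio, which chance alone passes in about 1 of 20 sets. In sorafenib for 48 hours replicate 2, Plin3 was the lowest at 799.9 normalized counts and Dgat2 the highest at 467. Plin3 lies in the stretch of that library with lowered counts and Dgat2 does not. In sorafenib for 7 days, replicate 1 was the lowest for Plin2 at 1079.8 normalized counts. For Plin5, replicate 2 of DMSO for 48 hours was set apart at 0 and replicate 3 of sorafenib for 48 hours at 0.952 normalized counts, that is by 1 read.

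The treatment difference changed with time, by the interaction test, for Plin2 (0.47 on the log2 scale), Plin3 (0.60), Pnpla2 (-0.27), Abhd5 (-0.58) and Mgll (-0.53). In DMSO libraries Plin2 and Plin3 were lower and the other 3 genes higher at 7 days than at 48 hours.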

How the results depend on the processing

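The 7-day count of called genes, 6 of the 10, stayed at 6 under all alternatives. The 48-hour count of 4 was 7 with limma voom (55.9% of all genes, against 54.6%) and 4 to 7 with a library left out (7 without sorafenib for 48 hours replicate 2, with 57% of all genes). It was 6 with DESeq2 (53.9%), DESeq2 size factors (54.8%), total counts (55.6%), 10 counts in every sample (75.6%) or the offset (57.5%). With the 8 libraries alone it was 5 (56.5%). It was 4 with no filter beyond 1 count (39.3%) and under the replicate block (52.1%). The count over time with sorafenib was 4 (39.7% of all genes), 2 under the replicate block (37%), 6 with the offset for the lowered library (44.7%) and 2 to 5 with a library left out (2 without sorafenib for 48 hours replicate 4, with 37.5%). Under the block and without that replicate, Abhd5 and Plin5 lost their call, and Abhd5 also without replicate 1, 3 or 4 of sorafenib for 7 days (FDR of Abhd5 up to 0.0987), and Plin5 without replicate 1 or 2 of either sorafenib group. Mgll, Lipe, Abhd5 and Pnpla2 kept their direction and call against DMSO at both times under all alternatives, between 3.11 and 3.24 and between 2.61 and 2.71 for Mgll. Plin2 and Dgat2 at 48 hours, near the threshold, were called lower under several alternatives, among them DESeq2 (FDR = 0.0299 and 0.0306).

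Changes of sign concerned values near 0 or low counts, and the cause was not tested beyond the lowered counts of 1 library. With the offset for that library, Dgat1 at 48 hours was 0.03, and over time with sorafenib Plin3 was -0.12 and Dgat1 -0.04. For Pnpla2 over time with sorafenib the values were 0.03 with DESeq2, DESeq2 size factors, total counts or the 8 libraries alone, 0.02 with voom and 0.05 with 10 counts in every sample. Voom gave -0.09 for Plin3 over time with sorafenib and 0.05 for the interaction of Plin4. The interaction of Lipe was 0.06 with total counts and 0.03 with 10 counts in every sample. With a library left out, the ranges at 48 hours were -0.01 to 0.23 for Plin3, -0.11 to 1.10 for Plin4 and -0.24 to 0.02 for Dgat1. At 7 days they were -0.09 to 0.88 for Plin4 and -0.38 to 0.30 for Plin5. In the interaction they were -0.85 to 0.36 for Plin4 and -0.17 to 0.06 for Lipe. Over time with sorafenib they were -0.12 to 0.11 for Plin3, -0.02 to 0.04 for Pnpla2 and -0.03 to 0.22 for Dgat1.

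Same-numbered replicates of sorafenib and DMSO had deviations correlated at -0.049 to 0.127, so the numbers were not taken to pair the libraries. With the replicate block, 4 genes were called at 48 hours, 6 at 7 days and 5 in the interaction. Depth limits Plin4 and Plin5, and the few libraries limit all values.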
